A study of Homo sapiens with 12 samples.

Results

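The 3 M-BSG libraries were compared with the 3 BSG libraries, 6 of the 12 RNA-seq libraries of a series on 143B cells. They were chosen by their sample titles, and the comparison covered the 15407 genes that passed a low-count filter, of 24180 gene symbols in the tables. 143B is an established human osteosarcoma line descended from HOS cells by transformation with a viral Ki-ras gene, and all samples carry the genotype label WT. The series holds 4 groups of 3 libraries: BSG and M-BSG, the control NC, and M-BSG-Hot. In the titles M-BSG stands for a group called 5-MNP-BSG, M-BSG-Hot for the same name with a plus sign, and BSG for a group of that name. A borosilicate bioactive glass and moderate magnetic hyperthermia are named in the series title. By the titles, the comparison sets a group named with MNP against a group named without it, outside the group titled Hot. The titles do not say whether M-BSG and BSG differ in MNP alone. The labels do not spell out MNP, and the same treatment text, an injectable magnetothermal system with an alternating magnetic field, stands on every sample, the controls included. Dose, exposure time and the field given to each group therefore cannot be told from the labels, nor whether the 3 libraries of a group came from separate cultures.

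Cells respond to ions, particles and stress within hours through immediate-early genes, whose short-lived products include transcription factors and feedback inhibitors of signalling. Magnetic particles are usually iron oxides, and cells that take up iron are known to raise the iron-storage protein ferritin and to lower the transferrin receptor, the former mostly at the level of translation and the latter at the level of mRNA stability. Heat shock genes code for chaperones that rise when proteins unfold, and ID genes code for inhibitors of differentiation that are classical targets of bone morphogenetic protein (BMP) signalling in the osteoblast lineage.

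Total counts of the 6 libraries ranged from 36505415 to 37934039, and 19157 to 19599 symbols had at least a count. Levels below are in CPM, that is counts put on a common library total with TMM factors, and a library count of 0 allows up to 3 counts, or 0.0791 to 0.0822 CPM, counting error only. Replicate 1 of BSG and of M-BSG was unlike replicates 2 and 3 of its group. The chi-square over genes, divided by its degrees of freedom, was 65.4 between BSG 1 and BSG 2 and 7.87 between BSG 2 and BSG 3. It was 60.3 between M-BSG 1 and M-BSG 2 and 8.71 between M-BSG 2 and M-BSG 3. Between BSG 1 and M-BSG 1 it was 21.6. Levels differed widely within the list of osteosarcoma line markers. VIM stood at 3580 to 4641 CPM and CD44 at 682 to 756 CPM over the 6 libraries. TWIST1 stood at 12.9 to 17.5, RUNX2 at 11.7 to 16.9 and COL1A1 at 5.23 to 8.37 CPM, and THY1 had no count in any of them. The epithelial genes KRT8 (316 to 425 CPM), KRT18 (874 to 1250 CPM) and EPCAM (14.1 to 21.9 CPM) were also expressed. So was the lysosomal and macrophage gene CD68 (124 to 152 CPM), whereas CDH1, the epithelial cadherin, reached at most 0.131 CPM. Summed marker levels of BSG and M-BSG overlapped for the osteosarcoma, immune, endothelial, epithelial and other mesenchymal lists, and no marker passed the test between the groups.

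Few genes separated M-BSG from BSG in the fit of all 12 libraries without a replicate block, and all of them were lower in M-BSG. By edgeR's quasi-likelihood test with Benjamini-Hochberg adjustment, 20 of 15407 genes fell (0.13% of the genes tested) and 0 rose. Mean levels of the 20 genes over the 6 libraries ran from 0.278 to 108 CPM. The log2 fold changes ran from -0.54 to -5.47, and 15 of the 20 genes changed by 2-fold or more. At an unadjusted p under 0.05 the same test gave 513 higher genes (3.33%) and 529 lower genes (3.43%), DESeq2 called 13 higher and 37 lower, and limma-voom called 1 higher and 27 lower, with all 20 genes called lower by each of these tools. The number of lower genes was 13 without BSG 3, 13 without M-BSG 1, 11 without M-BSG 2 and 3 without M-BSG 3, where RGS2, H2BC21 and LOC100506358 were the 3. Among the genes named next, RASD1, ID2, CITED2 and SNAI1 lost the call without M-BSG 3, HSPA1A without M-BSG 2 or M-BSG 3, HEXIM1 without BSG 3, M-BSG 2 or M-BSG 3, and KLF4 without BSG 2, M-BSG 2 or M-BSG 3. Their log2 fold changes moved little over the alternatives, for example between -1.59 and -1.29 for RASD1, between -0.97 and -0.80 for SNAI1 and between -0.90 and -0.73 for HSPA1A. A fit without both replicates 1 and without M-BSG-Hot 3 was chosen after seeing the data. The chi-square per degree of freedom of M-BSG-Hot 3 was 43.1 with M-BSG-Hot 1 and 18.9 with M-BSG-Hot 2, against 16.3 between M-BSG-Hot 1 and 2. M-BSG-Hot 3 thus stood apart less clearly than both replicates 1. That fit gave 73 higher and 38 lower genes, 19 of the 20 among the latter (all but PPP1R36). With the replicate number as a block in a fit of the 6 libraries alone, edgeR called 1277 higher and 888 lower genes, the 20 included, and with the block in the fit of 12 libraries it called 2 and 21; the numbers were not taken to pair the samples. In bulk RNA, fewer cells that express a gene and less RNA of it per cell cannot be told apart. For most genes the data bounded the difference: 12861 genes (83.5%) had a 95% interval of the log2 fold change that lay within -1 to 1, and the median over all genes tested was -0.00.

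**Figure D1:**
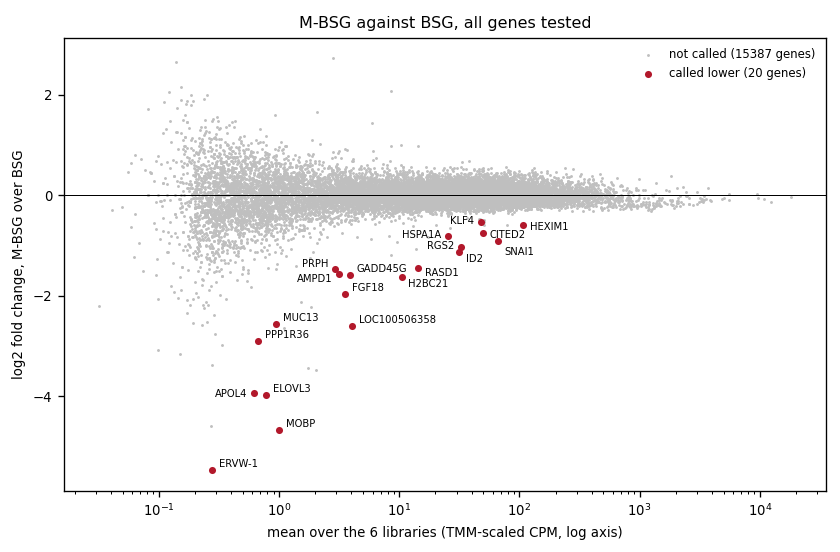
Log2 fold change of M-BSG over BSG against the mean level over the 6 libraries (TMM-scaled CPM, log axis), 1 point per gene tested. The 20 genes that fell (red, named) lie at or under the lower edge of the band formed by the other genes (grey), which widens at low counts so that some rare genes lie as low without passing, and no gene above the line passed the test.

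Of these genes, 9 reached a mean level of 5 CPM or more and were of 3 kinds: modulators of G protein signalling (RGS2, RASD1), regulators of transcription (ID2, CITED2, SNAI1, KLF4, HEXIM1), and a histone and a chaperone gene (H2BC21, HSPA1A). RefSeq promoters of human assembly GRCh38.p14 matched 17 of the 20 genes and 8 of the 9. As examples of each kind, the 250 bases before the start of transcription are shown for 4 of the 9, each 5′ to 3′ on the strand of the gene. Capitals mark matches on either strand to the CRE core TGACG, the BMP SMAD element GGCGCC, the TATA box TATAAA, the heat shock element GAANNTTC and the CArG box.
RASD1 (chr17:17496396-17496645, minus strand): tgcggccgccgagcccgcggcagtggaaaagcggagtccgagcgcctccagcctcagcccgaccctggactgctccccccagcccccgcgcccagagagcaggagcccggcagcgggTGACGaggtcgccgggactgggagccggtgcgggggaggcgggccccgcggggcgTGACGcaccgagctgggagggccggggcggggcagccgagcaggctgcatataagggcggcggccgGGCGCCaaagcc
HEXIM1 (chr17:45148225-45148474, plus strand): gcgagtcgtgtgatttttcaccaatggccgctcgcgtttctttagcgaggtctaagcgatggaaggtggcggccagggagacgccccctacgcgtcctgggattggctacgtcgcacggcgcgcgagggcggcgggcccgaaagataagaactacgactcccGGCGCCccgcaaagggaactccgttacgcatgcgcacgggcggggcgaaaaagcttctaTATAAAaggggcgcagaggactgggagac
H2BC21 (chr1:149886683-149886932, minus strand): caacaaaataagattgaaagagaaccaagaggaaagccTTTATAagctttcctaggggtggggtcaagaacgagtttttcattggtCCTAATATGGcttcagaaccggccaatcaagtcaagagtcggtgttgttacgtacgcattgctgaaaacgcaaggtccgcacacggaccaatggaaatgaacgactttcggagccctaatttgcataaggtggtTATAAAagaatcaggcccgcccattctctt
HSPA1A (chr6:31815293-31815542, plus strand): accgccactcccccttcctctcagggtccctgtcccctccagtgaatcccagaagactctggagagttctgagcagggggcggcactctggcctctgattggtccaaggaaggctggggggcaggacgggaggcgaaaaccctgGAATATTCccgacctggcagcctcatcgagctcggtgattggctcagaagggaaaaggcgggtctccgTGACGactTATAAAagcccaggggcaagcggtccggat
RASD1 held TGACG at positions -133 and -78 from the start and GGCGCC at -12. In HEXIM1 the GGCGCC lay at -88 and TATAAA at -29. The H2BC21 promoter held a CArG box, the binding sequence of serum response factor, from -164 to -155, with TATAAA at -30 and its reverse complement at -212. HSPA1A carried the heat shock element from -106 to -99, TGACG at -38 and TATAAA at -30. Of 12051 promoters of tested genes, 29.0% held TGACG (which is also part of the full CRE TGACGTCA), 25.98% GGCGCC, 5.68% TATAAA, 3.90% GAANNTTC and 1.00% a CArG box. Over all 27303 promoters the shares were 21.7%, 16.1%, 11.1%, 5.85% and 1.14%. Of the 17 matched genes, 5 held TGACG, 5 held GGCGCC, 6 held TATAAA, and 1 each held the heat shock element and the CArG box. Among the 8 matched of the 9, 4 held TGACG, 3 GGCGCC, 3 TATAAA, and 1 each the heat shock element and the CArG box. All of these TATAAA, heat shock element and CArG matches lie in the 4 promoters shown, so those 4 are not typical of the 8. These matches describe letters in this window only.

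Of the 2 modulators of G protein signalling, RGS2 had the smaller adjusted p. RGS2 speeds up GTP hydrolysis by the G protein alpha subunits that receptors activate and so shortens their signal. It stood at 46.4, 41.5 and 42.6 CPM in BSG 1, 2 and 3 and at 23.7, 20.9 and 19.3 CPM in M-BSG 1, 2 and 3. The highest M-BSG library was well under the lowest BSG library, and both groups lay above NC (7.72 ± 0.501 CPM, SD, n = 3). The log2 fold change was -1.03 (SE 0.105, edgeR adjusted p = 0.00138), and it stayed between -1.12 and -0.90 over 22 alternative analyses, with RGS2 called in each. RASD1, a small Ras-like GTPase that glucocorticoids induce and that modulates G protein and cAMP signalling, was at 21.7, 21.6 and 19.8 CPM in BSG and at 7.91, 9.27 and 6.05 CPM in M-BSG. Its groups did not overlap, while NC was close to none (0.155 ± 0.0908 CPM). The log2 fold change of RASD1 was -1.44 (SE 0.182, edgeR adjusted p = 0.00471). In M-BSG-Hot the means were 26.6 ± 3.12 CPM for RGS2 and 14.8 ± 3.12 CPM for RASD1.

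The regulators of transcription came from several families. ID2, a helix-loop-helix protein that lacks a DNA-binding region and sequesters its partners, measured 48.6, 37.9 and 44.2 CPM in the BSG libraries and 23.1, 19.6 and 16.7 CPM in the M-BSG libraries. All M-BSG values lay below all BSG values and far above NC (1.42 ± 0.321 CPM), for a log2 fold change of -1.14 (SE 0.145, edgeR adjusted p = 0.00471). SNAI1, the zinc-finger repressor of E-cadherin, measured 82.1, 91.3 and 85.9 CPM in BSG and 42.5, 49.0 and 45.7 CPM in M-BSG. The spread within each group was small beside the gap between them, and the log2 fold change was -0.92 (SE 0.131, edgeR adjusted p = 0.0094). NC held 5.38 ± 0.945 CPM of SNAI1. CITED2, a cofactor that binds the coactivators CBP and p300 and limits hypoxia signalling, was at 62.9, 67.3 and 57.5 CPM in BSG and at 38.5, 36.6 and 36.9 CPM in M-BSG, with no overlap (log2 fold change -0.75, SE 0.0955, edgeR adjusted p = 0.00471).

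KLF4 and HEXIM1 had the smallest changes of the 20. KLF4, a Krüppel-like zinc-finger factor, read 54.6, 59.8 and 55.0 CPM in BSG and 40.4, 37.1 and 38.7 CPM in M-BSG. The groups were apart although the log2 fold change was only -0.54 (SE 0.0804, edgeR adjusted p = 0.0116). HEXIM1, which with a small nuclear RNA holds the elongation kinase P-TEFb inactive, was the most abundant of the 20, at 134.7, 124.1 and 130.0 CPM in BSG and 88.2, 87.0 and 81.9 CPM in M-BSG. Its libraries did not overlap either (log2 fold change -0.60, SE 0.0858, edgeR adjusted p = 0.0094). NC levels were 24.1 ± 0.726 CPM for KLF4 and 41.2 ± 1.90 CPM for HEXIM1, and M-BSG-Hot levels were 47.8 ± 4.12 and 109.4 ± 13.0 CPM. Both genes were called in 16 of 22 alternatives, and both lost the call when only the 6 libraries were fitted.

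H2BC21, which codes for a histone H2B, read 15.0, 13.0 and 19.6 CPM in BSG and 5.72, 5.67 and 3.90 CPM in M-BSG. Every M-BSG library was below any BSG library, and NC was lower still at 2.12 ± 0.191 CPM. The log2 fold change was -1.63 (SE 0.186, edgeR adjusted p = 0.00268), the largest of the 9, and it was called in each of 22 alternatives. HSPA1A, the stress-inducible cytosolic chaperone of the HSP70 family, read 35.0, 31.5 and 30.7 CPM in BSG and 18.6, 17.1 and 19.6 CPM in M-BSG, again without overlap (log2 fold change -0.81, SE 0.117, edgeR adjusted p = 0.0094). HSPA1B is a near-identical copy of HSPA1A, and how shared reads were divided is not given, so the value of each is uncertain. HSPA1B itself read 42.0, 41.4 and 42.6 CPM in BSG and 30.4, 28.1 and 33.5 CPM in M-BSG. Its groups were also apart, with a log2 fold change of -0.46 that did not pass the test (SE 0.127, edgeR adjusted p = 0.508).

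**Figure D2:**
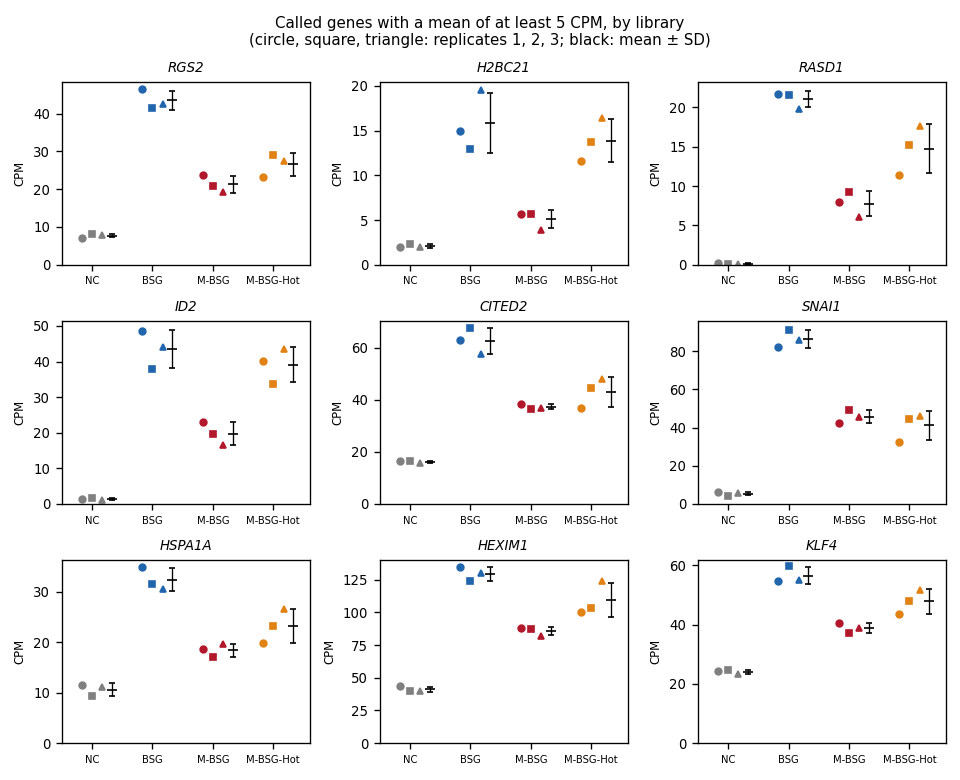
TMM-scaled CPM in each of the 12 libraries for the 9 lower genes with a mean level of 5 CPM or more (circle, square and triangle for replicates 1, 2 and 3, black bars for mean ± SD). In every panel the 3 M-BSG points lie below the 3 BSG points, and NC is the lowest group.

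Comparisons with NC and with M-BSG-Hot share the BSG or the M-BSG libraries with this comparison, so their values are given only side by side. For RASD1 the log2 fold change over NC was 7.08 in BSG and 5.64 in M-BSG, and M-BSG-Hot over M-BSG gave 0.93 (edgeR adjusted p = 0.0351). ID2 gave 4.93, 3.79 and 0.98 (edgeR adjusted p = 0.00749 for the last) in the same order. For H2BC21 the 3 values were 2.90, 1.27 and 1.44 (edgeR adjusted p = 0.00478 for the last). These 3 of the 9 more abundant genes passed the last comparison, and the 9 had been taken for their low M-BSG values, which enter it too. SNAI1 gave 4.01, 3.09 and -0.15 (edgeR adjusted p = 0.819), and RGS2 gave 2.49, 1.46 and 0.32 (edgeR adjusted p = 0.296), so for these the last comparison did not pass the test. Nor did it for the other 4, where M-BSG-Hot over M-BSG gave 0.20 for CITED2, 0.33 for HSPA1A, 0.35 for HEXIM1 and 0.30 for KLF4 (edgeR adjusted p = 0.568, 0.35, 0.105 and 0.148).

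The other 11 genes that fell had a mean under 5 CPM, and they were picked after their values were seen. GADD45G, a growth-arrest protein that activates stress kinases, read 6.21, 6.90 and 4.34 CPM in BSG and 1.89, 2.05 and 1.83 CPM in M-BSG (log2 fold change -1.60, SE 0.207, edgeR adjusted p = 0.00471). FGF18, a secreted growth factor of cartilage and bone, read 6.6, 5.05 and 5.34 CPM in BSG and 1.89, 1.2 and 1.23 CPM in M-BSG (log2 fold change -1.97, SE 0.257, edgeR adjusted p = 0.00471). The unnamed locus LOC100506358 read 10.1, 5.18 and 5.69 CPM in BSG and 1.15, 1.2 and 1.06 CPM in M-BSG (log2 fold change -2.61, SE 0.272, edgeR adjusted p = 0.00138). In all 3 the groups were well apart, and BSG 1 was the highest library for FGF18 and LOC100506358. AMPD1, the AMP deaminase of muscle, and PRPH, the intermediate filament peripherin of neurons, fell by 1.57 and 1.46 on the log2 scale, from BSG means of 4.70 and 4.29 CPM (edgeR adjusted p = 0.0248 and 0.0398). AMPD1 lost the call when any of the 6 libraries was left out and PRPH when any but BSG 2 was, and both lost it with the replicate block in the fit of 12 libraries. GADD45G and FGF18 lost it without M-BSG 3.

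The remaining 6 genes were rare in M-BSG and NC. MOBP, a myelin protein gene, had 214 counts in all over the 3 BSG libraries and 8 over the 3 M-BSG libraries. Relative to library totals this is a ratio of 26.3 (95% interval 13.1 to 61.7, counting error only). The ratios given here use library totals without TMM factors. ELOVL3, an elongase of very long fatty acids, had 163 and 10 counts, a ratio of 16.0 (8.50 to 34.1), and no count in NC. APOL4, of the apolipoprotein L family, had 128 and 8 counts, a ratio of 15.7 (7.75 to 37.2). Mean levels of these 3 genes in BSG were 1.94, 1.47 and 1.16 CPM. PPP1R36, a subunit of protein phosphatase 1, had 130 and 17 counts, and MUC13, a membrane mucin, had 180 and 30. ERVW-1, the endogenous retroviral envelope gene syncytin, had 61 counts in BSG and 1 in M-BSG, a ratio of 60.0 (10.4 to 2408), and none in NC. Every BSG library exceeded every M-BSG library for these 6 genes, and edgeR's adjusted p ran from 0.0094 for MOBP to 0.0381 for ERVW-1, but MOBP lost the call without M-BSG 2 or M-BSG 3, and APOL4, ELOVL3, MUC13, PPP1R36 and ERVW-1 kept the call in only 8 to 13 of 21 alternatives.

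**Figure D3:**
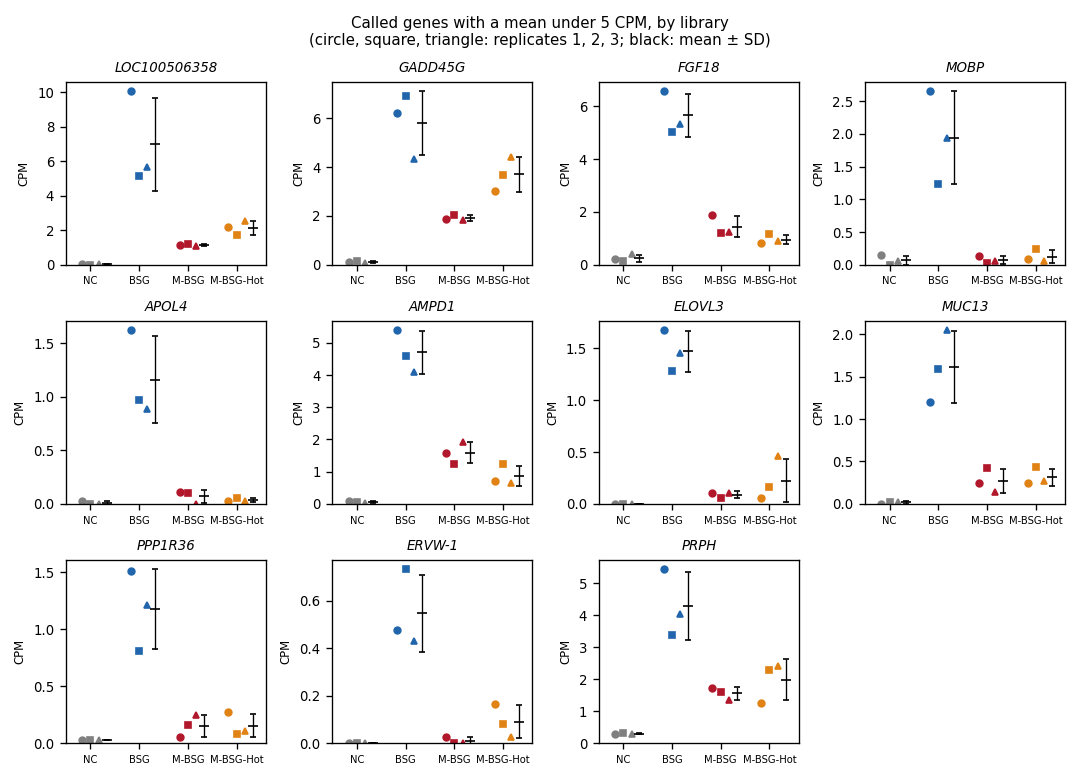
TMM-scaled CPM in each of the 12 libraries for the 11 lower genes with a mean under 5 CPM (symbols and bars as in the plot of the 9 more abundant genes). The BSG points stand above the M-BSG points in every panel, and several genes are near 0 in NC and in M-BSG.

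At an adjusted p under 0.1, 30 genes were lower, the 20 included, and 3 were higher. CXCR4, the chemokine receptor, picked after its values were seen, read 24.3, 23.8 and 25.1 CPM in BSG and 14.4, 16.5 and 17.5 CPM in M-BSG (log2 fold change -0.60, SE 0.107, edgeR adjusted p = 0.0524). JMJD6, a jumonji-domain hydroxylase chosen in the same way, had a log2 fold change of -0.48 (edgeR adjusted p = 0.0638). NR4A2, an orphan nuclear receptor of the immediate-early class, was at 8.98, 13.3 and 13.0 CPM in BSG and at 3.45, 6.90 and 5.07 CPM in M-BSG (log2 fold change -1.19, edgeR adjusted p = 0.067). NR4A2 was called lower in at least 10 of 22 alternatives. The libraries of these 3 genes did not overlap between groups, which was so for 742 genes (4.82%) in the lower direction and 628 genes (4.08%) in the higher direction.

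The 3 higher genes, likewise picked after their values were seen, were CCNL2, SLC9A3-AS1 and MDGA1. CCNL2, a cyclin that takes part in RNA splicing, read 110.4, 114.3 and 108.1 CPM in BSG and 150.3, 145.0 and 142.9 CPM in M-BSG (log2 fold change 0.40, SE 0.0733, edgeR adjusted p = 0.0651). M-BSG lay between BSG and NC, where CCNL2 averaged 210.6 ± 4.30 CPM. SLC9A3-AS1 read 2.13, 2.61 and 2.59 CPM in BSG and 5.15, 4.13 and 4.64 CPM in M-BSG (log2 fold change 0.92, edgeR adjusted p = 0.067), with 11.2 ± 0.511 CPM in NC. As an antisense gene its counts cannot be separated from those of its partner unless strand was used, which is not given. MDGA1, a membrane-anchored adhesion protein, had a log2 fold change of 1.59 from 0.456 to 1.38 CPM (edgeR adjusted p = 0.0744). DESeq2 and edgeR with no count filter called all 3 genes higher, and limma-voom and edgeR with library size only also called CCNL2.

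Gene lists were read by their counts and medians beside the median of -0.00 over all genes. In the 46 lists, with 1076 tested genes, 8 members fell and 0 rose. Over all 15407 genes tested, 20 fell (0.13%) and 0 rose. The lists were chosen with earlier results of these data known. Of the other members DESeq2 called ANGPTL4, HBEGF, HSPA2, ID1, ID4, MYC and NR4A2 lower and LENG8 and SLC25A37 higher, and limma-voom called HSPA2 and NR4A2 lower, so a list described below without such a gene had no further call by either tool. Without the 3 libraries that stand apart (both replicates 1 and M-BSG-Hot 3), edgeR called 16 more members of 18 lists, some of which share genes. Of 31 heat shock chaperone genes HSPA1A fell and no other passed in the fit reported. The list had a median of -0.12, with 29 members below 0, as were 50.5% of all genes. In 12 members all 3 M-BSG libraries lay under all 3 BSG libraries (38.7%, against 4.82% of all genes). HSPA2, a testis-enriched member of the same chaperone family, was at 54.3, 66.5 and 62.2 CPM in BSG and 36.4, 43.5 and 41.6 CPM in M-BSG, a log2 fold change of -0.59 that missed the threshold (edgeR adjusted p = 0.067). HSPA2 was called lower in at least 8 of 22 alternatives, among them without BSG 1 and with the replicate block in the fit of 12 libraries. DNAJB1, the cochaperone that works with HSP70, had a log2 fold change of -0.15 (95% interval -0.32 to 0.01). The list's median was -0.06 without BSG 1 and -0.06 with the trend over gene length removed.

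Signal-responsive transcription factors gave a mixed picture. Of 30 immediate-early genes KLF4 fell, and the median was -0.06. In the lower direction 10 genes were apart (33.3%, against 4.82% of all genes), and in the higher 1 (3.33%, against 4.08%). MYC read 53.2, 56.3 and 49.7 CPM in BSG and 39.4, 36.0 and 39.4 CPM in M-BSG (log2 fold change -0.47, edgeR adjusted p = 0.0871). FOS, a part of the AP-1 factor, read 286.6, 322.6 and 292.5 CPM in BSG and 224.0, 247.9 and 256.0 CPM in M-BSG (log2 fold change -0.31, edgeR adjusted p = 0.635), without overlap. EGR1 went the other way without passing, at 204.0, 252.0 and 243.3 CPM against 272.1, 243.2 and 326.8 CPM (log2 fold change 0.27, 95% interval -0.15 to 0.69), and its groups overlapped. Both stood far above NC, where FOS averaged 4.33 ± 0.616 CPM and EGR1 48.0 ± 0.616 CPM. Among 18 NR4A and cAMP-CREB targets CITED2 fell, with a list median of 0.13. Of these targets 5 were apart in the lower direction (27.8%) and 3 in the higher (16.7%). Among 18 steroid- and stress-induced genes RASD1 fell, with a median of -0.03, and 5 were apart lower (27.8%) and 2 higher (11.1%). SGK1, a kinase of that list, had a log2 fold change of -0.28 (95% interval -0.44 to -0.11, edgeR adjusted p = 0.508).

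BMP targets and osteoblast genes were examined next. Of 25 BMP and SMAD feedback targets ID2 fell, and the median was -0.09. In the lower direction 7 members were apart (28%, against 4.82% of all genes), and in the higher 0 (against 4.08%). ID4 read 5.71, 5.46 and 6.07 CPM in BSG and 3.23, 3.17 and 3.27 CPM in M-BSG (log2 fold change -0.83, edgeR adjusted p = 0.098). ID1 read 106.7, 97.6 and 79.8 CPM in BSG and 72.1, 64.1 and 53 CPM in M-BSG (log2 fold change -0.59, edgeR adjusted p = 0.117). The groups were apart for both, so 3 ID genes had lower values in M-BSG, of which ID2 alone passed in the fit reported. Their relation to NC differed. NC held 79.0 ± 5.81 CPM of ID1, above every M-BSG library, but only 0.695 ± 0.111 CPM of ID4, below both groups as for ID2. ID1 passed edgeR's test with the replicate block in the fit of 12 libraries, with no count filter, without replicate 1 of both groups and without the 3 libraries that stand apart. The list's median was -0.23 without M-BSG 1. In 19 osteoblast lineage genes none passed and the median was -0.05. RUNX2, the master factor of osteoblasts, read 11.7, 14.5 and 16.9 CPM in BSG and 15.6, 15.7 and 16.4 CPM in M-BSG, with overlap (log2 fold change 0.15, 95% interval -0.14 to 0.44). Of 22 TGF-beta targets and factors of epithelial-mesenchymal transition, SNAI1 fell and the median was 0.11. TWIST1 of that list had a log2 fold change of -0.29 and FN1 of 0.35, and neither passed (edgeR adjusted p = 0.635 for each).

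**Figure D4:**
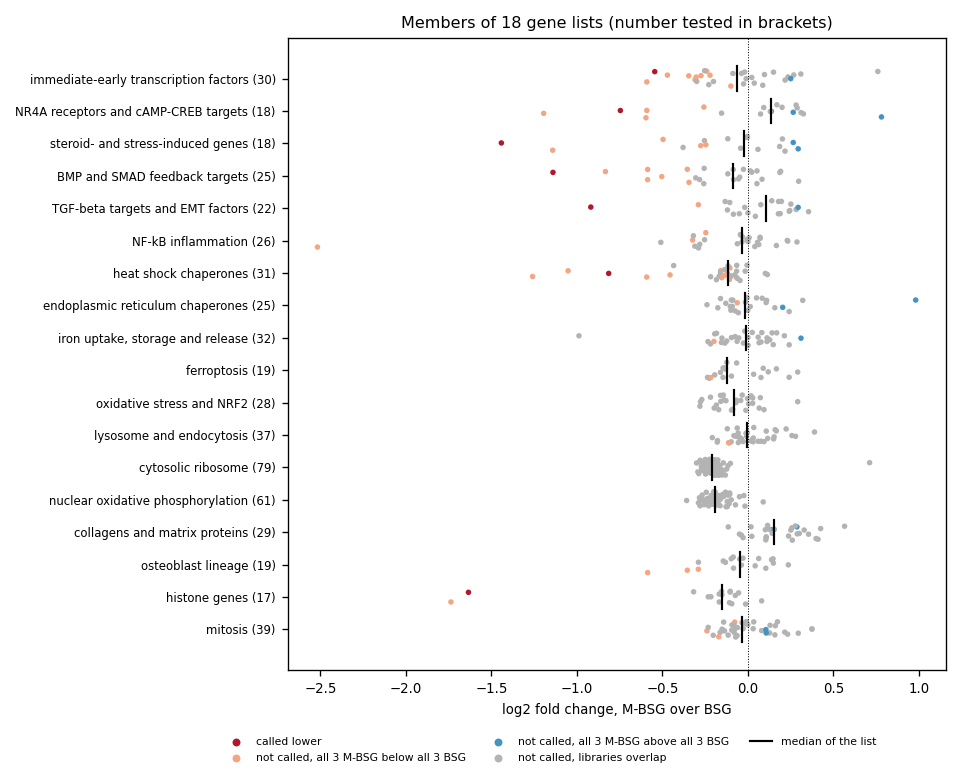
Log2 fold change of M-BSG over BSG for the members of 18 gene lists, with the number tested in brackets and the list median as a black bar. Dark red marks genes that passed the test and paler red or blue marks genes whose 3 M-BSG libraries lie below or above all 3 BSG libraries without passing. Most lists centre near 0, and the ribosomal and oxidative phosphorylation lists lie slightly to the left as tight clusters.

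Genes of iron handling did not pass the test in either direction in the fit reported. Of 32 tested genes for iron uptake, storage and release, edgeR called 0. At an unadjusted p under 0.05 there was 1 higher and 1 lower gene, against 3.33% and 3.43% of all genes. The median was -0.01. FTH1, the ferritin heavy chain, read 1031, 747 and 735 CPM in BSG and 803, 667 and 726 CPM in M-BSG, with overlap (log2 fold change -0.19, 95% interval -0.46 to 0.07). FTL, the light chain, gave -0.22 (95% interval -0.48 to 0.04). TFRC, the transferrin receptor, read 289.6, 370.2 and 387.9 CPM in BSG and 334.0, 481.8 and 422.5 CPM in M-BSG (log2 fold change 0.24, 95% interval -0.09 to 0.57), and its groups overlapped. SLC40A1, the iron exporter ferroportin, gave 0.17 (95% interval -0.26 to 0.60). For these 4 genes the intervals exclude a 2-fold change in either direction. SLC25A37, which carries iron into mitochondria, read 102.1, 120.8 and 112.2 CPM in BSG and 130.9, 144.2 and 140.4 CPM in M-BSG, apart between groups (log2 fold change 0.31, SE 0.0761, edgeR adjusted p = 0.354). DESeq2 called SLC25A37 higher, and so did edgeR without the 3 libraries that stand apart.

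Lists on oxidative damage, metals and degradation likewise held no gene that passed. None of 19 ferroptosis genes, 28 genes of oxidative stress and the NRF2 response, or 8 metal-response genes passed in edgeR. At an unadjusted p under 0.05, 1, 1 and 0 of them were lower, against 3.43% of all genes. HMOX1, the haem oxygenase that NRF2 induces, read 12.0, 11.4 and 11.6 CPM in BSG and 13.4, 8.02 and 11.3 CPM in M-BSG (log2 fold change -0.10, 95% interval -0.41 to 0.22). GPX4, the lipid peroxidase that protects from ferroptosis, gave -0.15 (95% interval -0.45 to 0.16), and SLC7A11, the cystine carrier, gave 0.29 (95% interval -0.10 to 0.68). The groups overlapped for all 3. MT2A, a metallothionein, gave -0.32 (95% interval -0.65 to 0.01). Among 37 lysosome and endocytosis genes and 28 autophagy genes none passed, with medians of -0.00 and -0.03. At an unadjusted p under 0.05 each list had 1 higher gene (3.33% of all genes were higher), and the autophagy list also 1 lower.

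**Figure D5:**
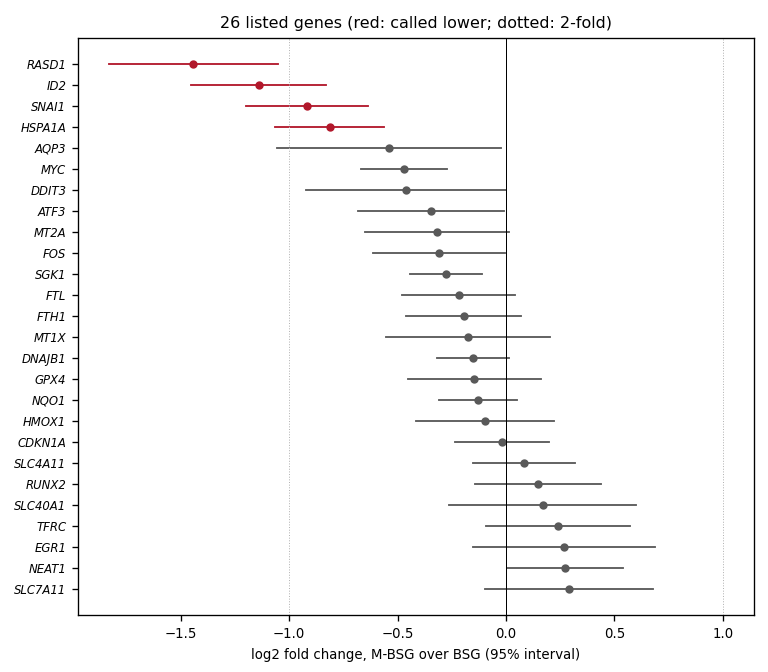
Log2 fold change of M-BSG over BSG with its 95% interval for 26 genes of heat, iron, metal, growth and bone biology. The 4 genes in red (RASD1, ID2, SNAI1, HSPA1A) passed the test, and the intervals of the iron genes FTH1, FTL, TFRC and SLC40A1 include 0 and stay within 2-fold.

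Some lists shifted slightly to 1 side without a gene passing in the fit reported. Of 79 cytosolic ribosome genes 78 were below 0, with a median of -0.21, yet none was apart between the groups. Over all genes tested 50.5% were below 0, and 4.82% were apart in the lower direction. Of 61 nuclear genes of oxidative phosphorylation 60 were below 0 (median -0.19), and of 34 proteasome genes 31 were (median -0.15). The share of all counts on ribosomal protein genes was 11.4%, 8.45% and 9.22% in BSG 1, 2 and 3 and 10.0%, 7.58% and 8.18% in M-BSG 1, 2 and 3, so that replicate 1 was the highest in each group and the groups overlapped. Without BSG 1 the medians of the ribosome, oxidative phosphorylation and proteasome lists were -0.04, -0.04 and -0.03, and without M-BSG 1 they were -0.35, -0.31 and -0.23. With the trend over gene length removed they were -0.06, -0.05 and -0.03. Collagens and matrix proteins lay on the other side: 25 of 29 were above 0 with a median of 0.15, 6 (20.7%) were higher at an unadjusted p under 0.05, against 3.33% of all genes, and none passed. HSPG2, the basement membrane proteoglycan perlecan, read 50.1, 74.2 and 64.2 CPM in BSG and 62.3, 121.8 and 95 CPM in M-BSG (log2 fold change 0.57, edgeR adjusted p = 0.635). Without the 3 libraries that stand apart HSPG2 passed (0.65, edgeR adjusted p = 0.031), as did NDUFB5 of the oxidative phosphorylation list (-0.37, edgeR adjusted p = 0.0461). The matrix list's median was 0.11 without BSG 1 and 0.28 without M-BSG 1.

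The mitosis, DNA replication, p53, apoptosis and transport lists held no gene that passed in the fit reported. None of 39 mitosis genes, 40 DNA replication genes, 27 p53 targets or 33 apoptosis genes was called, with medians of -0.03, -0.04, -0.02 and -0.02. At an unadjusted p under 0.05 they had 3, 0, 1 and 1 higher and 2, 2, 3 and 1 lower genes. Over all genes the shares were 3.33% higher and 3.43% lower. CDKN1A, the p53 target that arrests the cell cycle, read 161.9, 148.0 and 141.1 CPM in BSG and 156.9, 141.2 and 147.6 CPM in M-BSG, a log2 fold change of -0.02 (95% interval -0.23 to 0.20). The groups overlapped, and both lay above NC (95.3 ± 6.29 CPM). Of 26 genes of pH, borate and water transport none passed, and SLC4A11, a borate-linked transporter, gave a log2 fold change of 0.08. Without the 3 libraries that stand apart, GINS2 of the DNA replication list, GADD45B of the p53 list and SLC4A7 of this list passed. H2BC21 was the single gene of 17 histone genes that fell (list median -0.15), and HEXIM1 the single gene of 29 in the MYC network and ribosome biogenesis (median -0.07). NEAT1, a nuclear-retained RNA, read 19.1, 20.3 and 25.7 CPM in BSG and 29.5, 22.9 and 26.3 CPM in M-BSG (log2 fold change 0.27, edgeR adjusted p = 0.635), both far under NC (161.6 ± 2.48 CPM).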

How the data were processed

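Libraries were prepared with the SMARTER mRNA-Seq kit, according to the labels' protocols. For each sample the authors deposited raw counts per gene symbol and FPKM values; the deposited FPKM are the same counts divided by gene length and library total (100% of values above 0 match within a relative tolerance of 1e-06), and served only for gene lengths. Aligner, counter, annotation and strand setting: not given in the sources used here. GRCm38 and mm10, mouse names, appear in the submitters' processing notes, while the symbols are human, so the build is unresolved and coordinates belong to the RefSeq promoters only.

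Counts were tested with edgeR 4.0.16 in R 4.3.3: TMM factors, filterByExpr with a minimum count of 10, and 1 quasi-likelihood model of the 12 libraries with a mean per group, Benjamini-Hochberg adjusted p under 0.05 as the call. The median SE of a log2 fold change was 0.131. The SE is the absolute log2 fold change over the square root of F, and 95% intervals come from it. Replicates are not said to be separate cultures, so p-values reflect the spread between these samples alone, and this may be technical; a permutation test of 3 against 3 cannot give p under 0.1. A simulation tested only the recovery of changes of 2-fold or more set in well-expressed genes, with the same dispersion for every gene. It held no unlike libraries, so it does not bear on the rare genes or on smaller changes. DESeq2 1.42.0, limma 3.58.1 (voom), other scalings and filters, a replicate block, a gene length correction and left-out libraries were alternatives. Named are up to 14 called genes per direction with a mean of at least 5 CPM, from each list described the members with the lowest adjusted p (at most 4), and 26 listed genes; others are said to be picked after their values were seen. The comparison, the gene lists and the rule were chosen with earlier results of these data known.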

Additional observations from a re-analysis of the deposited data

How the results depend on the processing

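In the fit reported, 0 genes were higher and 20 lower. The counts of higher and lower genes were 13 and 37 with DESeq2, 1 and 27 with limma-voom, 0 and 20 with RLE factors, 1 and 20 with library size only, 6 and 32 with no count filter, 0 and 8 with a strict filter of 1 CPM in every group mean (8 of the 20 were then testable), 0 and 14 with the 6 libraries only, and 2 and 25 with the gene length trend removed. Leaving out 1 of the 6 libraries gave 0 to 1 higher and 3 to 16 lower genes, and leaving out a replicate number in both groups gave 0 higher and 4 to 17 lower. Without the 3 libraries that stand apart, an alternative chosen after seeing the data, they were 73 and 38. The cause of these differences was not tested, apart from the fewer genes or samples that some settings hold.

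Same-numbered BSG and M-BSG libraries had correlations of deviations from their group means of 0.41, 0.22 and 0.07. Differently numbered pairs ranged from -0.32 to 0.19, and 4 of 6 libraries correlated best with their own number. By chi-square per degree of freedom, BSG 1 was nearer to M-BSG 1 (21.6) than to BSG 2 (65.4) or BSG 3 (48.2). M-BSG 1 was nearer to BSG 3 (13.8) than to BSG 1. The numbers were not taken to pair the samples, and whether same-numbered libraries shared handling was not tested. The counts of calls depend on this choice. With the replicate block in the fit of 12 libraries the counts were 2 and 21, with the block and the gene length correction 5 and 26, and with the block in the fit of 6 libraries 1277 and 888, all 20 genes among the latter. Limma-voom with the block on the 6 libraries, chosen after seeing the data, gave 1190 and 968.

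None of the 20 genes changed sign in any alternative, 3 of them were called in every alternative that tested them, and 13 of the 183 other named genes lay on the other side of 0 in at least 1 alternative. At this depth, genes near the limit that a count of 0 allows cannot be resolved, and with 3 libraries a group small changes can be missed.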

Other observations

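U2AF1, a splicing factor gene with a near-identical copy in the GRCh38 assembly (LOC102724594), was picked after its values were seen, since its counts were very uneven within groups. It had 146, 103 and 116 counts in BSG 1, 2 and 3 and 180, 151 and 1198 in M-BSG 1, 2 and 3, a log2 fold change of 2.07 (SE 1.15) that did not pass the test (edgeR adjusted p = 0.635). LOC102724594 had 270, 890 and 241 counts in BSG and 272, 206 and 247 in M-BSG. The sum of both was 11.6, 25.95 and 9.62 CPM in BSG and 12.4, 9.51 and 39.4 CPM in M-BSG, so that BSG 2 and M-BSG 3 were each well above the other libraries of their group.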
